A study of Mus musculus with 32 samples.

Results

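The comparison described here is rd1 against wild type (wt) mouse retina at postnatal day 8 (P8). It was chosen by the sample labels alone and takes the 4 rd1 P8 arrays and the 4 wt P8 arrays, 8 of the 32 arrays of a series that covered both genotypes at 4 ages (P2, P4, P6 and P8) in groups of 4. Each array was hybridised with RNA of 8 to 14 combined retinas, so a replicate is a pool and not a single animal, and nothing in the labels ties a pool to a litter or to a sex. The rd1 animals carried rd1, a recessive mutation of Pde6b, on a chromosome that also bears light ear (rd1/le), and both genotypes were on a C57BL/6 background. No pool received a treatment, and the mutation was present in every cell of the animal. The measurement was the relative brightness of 22626 probe sets, given as log2 values, and a difference below is always rd1 minus wt on that log2 scale. The 16 arrays of P4 and P6 entered the fit only to share 1 estimate of the spread and are quoted where they show when a difference was present. The comparison addresses what already differs in the rd1 retina shortly before its rods begin to die.

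Rods turn light into an electrical signal through cyclic GMP. In light the G protein transducin is activated, transducin switches on a phosphodiesterase built from the products of Pde6a, Pde6b and Pde6g, and the enzyme breaks down the cyclic GMP that holds the cation channels of the outer segment open. Without the Pde6b product cyclic GMP accumulates, and in the rd1 mouse the rods are lost within weeks of birth, followed slowly by the cones. At about this age rods and cones are building outer segments and synapses, bipolar cells and Mueller glia mature, the last divisions of retinal progenitors end, and vessels sprout from the retinal surface into deeper layers. A whole-retina pool mixes all of these cells, and fewer cells of a type cannot be told apart from less RNA per cell.

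The promoters of Pde6b, the mutated gene, and of Rabac1, the gene the study followed up, are shown because both were lower in rd1 at P4, P6 and P8. The windows hold the 250 bases before the annotated start and were taken from RefSeq on build GRCm38.p6. The Pde6b window is chr5:108388123-108388372 on the plus strand and the Rabac1 window is chr7:24972729-24972978 on the minus strand. Capitals mark matches, on either strand, to the letters TGCTGAC (the core of the site of NRL, a rod transcription factor), TGANTCA (the site of AP-1, the dimer of Fos and Jun proteins) or TAATCC (the site of CRX, a photoreceptor transcription factor).
Pde6b: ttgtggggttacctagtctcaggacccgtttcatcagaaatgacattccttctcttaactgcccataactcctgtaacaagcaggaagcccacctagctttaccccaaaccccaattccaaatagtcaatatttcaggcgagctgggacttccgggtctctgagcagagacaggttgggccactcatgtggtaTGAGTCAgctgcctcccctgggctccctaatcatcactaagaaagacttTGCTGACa
Rabac1: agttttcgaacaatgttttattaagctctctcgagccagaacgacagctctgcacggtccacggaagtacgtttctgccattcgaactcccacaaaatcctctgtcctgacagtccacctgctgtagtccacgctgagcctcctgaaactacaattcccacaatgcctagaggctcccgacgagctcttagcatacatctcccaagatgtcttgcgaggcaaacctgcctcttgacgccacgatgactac
The Pde6b window held 1 NRL match and 1 AP-1 match, and the Rabac1 window held none. Among 32851 RefSeq promoter windows of the same length, 3.81% held the NRL letters, 6.75% the AP-1 letters and 6.25% the CRX letters. Of 24 genes called at P8 with a window in that table, 1 held an NRL match, 4 an AP-1 match and 2 a CRX match. A gene was counted if any of its windows matched, whereas the shares above are per single window. The counts and the shares are therefore not directly comparable. A match is a match of letters and was not tested as a site.

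The 8 arrays had medians between 6.60 and 6.72, and replicates of a genotype correlated across probe sets at 0.983 to 0.997. Rod, cone and glial markers were bright in both genotypes, with Crx at 12.91 in wt and 12.77 in rd1, Opn1sw at 11.51 and 11.31, Nrl at 13.26 and 13.30, and Rlbp1 at 11.57 and 11.40 (means, n = 4 each). The library labelled rd1 replicate 4 stood apart. Its 14 measured crystallin genes averaged 11.55, against 5.43 to 9.40 on the wt arrays and 7.59 to 7.73 on the other rd1 arrays, and Mip, a water channel of lens fibres, read 6.69 there and no more than 3.97 on the other 7 arrays. Without this library the lowest correlation between replicates was 0.995. Differences are therefore given with all 8 arrays, and also without rd1 replicate 4 (3 rd1 against 4 wt arrays) where that changed a sign or a call or moved a value by over 1.5-fold. The 27 control probe sets for Bacillus genes, which no mouse RNA should light, ranged from 1.75 to 4.87 on these arrays, so means below 4.87 are called dim here. Among the 7903 probe sets dim in both groups, 90.0% were higher in rd1 with a median difference of 0.13, whereas among the other 14723 the share was 47.4% and the median -0.01. The lower quartile of an array lay at 3.47 to 3.58 in wt and at 3.60 to 3.82 in rd1, and the part of this shift in the dim rises was not tested.

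At P8 35 of 22626 probe sets (0.155%) differed between the genotypes at an adjusted p below 0.05 (limma, Benjamini-Hochberg over all probe sets), and these are the calls below. Of these, 10 were higher (0.0442%) and 25 lower (0.110%) in rd1, and 27 (0.119%) also changed by 1.5-fold or more. The share of higher calls was 28.6%, and 14.3% of 49 calls after a further quantile normalization. At an unadjusted p below 0.05 stood 4408 probe sets (19.5%), of which 3535 were higher (15.6%) and 873 lower (3.86%). The 4 rd1 arrays did not overlap the 4 wt arrays in 10 of the 10 higher and 20 of the 25 lower calls, where 10.2% and 2.34% of all probe sets did not overlap in these directions (12.5% in both). For a single gene without overlap the exact two-sided permutation test over 70 assignments gives its smallest p, 0.0286. Of the 35 calls, 16 were dim in both groups and 13 had both means above 6. Without rd1 replicate 4 there were 88 calls (0.389%), 36 higher (0.159%) and 52 lower (0.230%). Of these, 28 were shared with the 35, in the same direction, and 60 were called only without that library. Leaving out rd1 replicate 1 gave 149 calls, rd1 replicate 2 gave 54, rd1 replicate 3 gave 22, wt replicate 1 gave 22 and wt replicate 4 gave 17. A fit on the 8 P8 arrays alone called 10 probe sets, 6 of them among the 35. Of the 35 calls, 15 passed in each of the 8 fits that left out 1 P8 array, and the genes described first are among them.

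**Figure D1:**
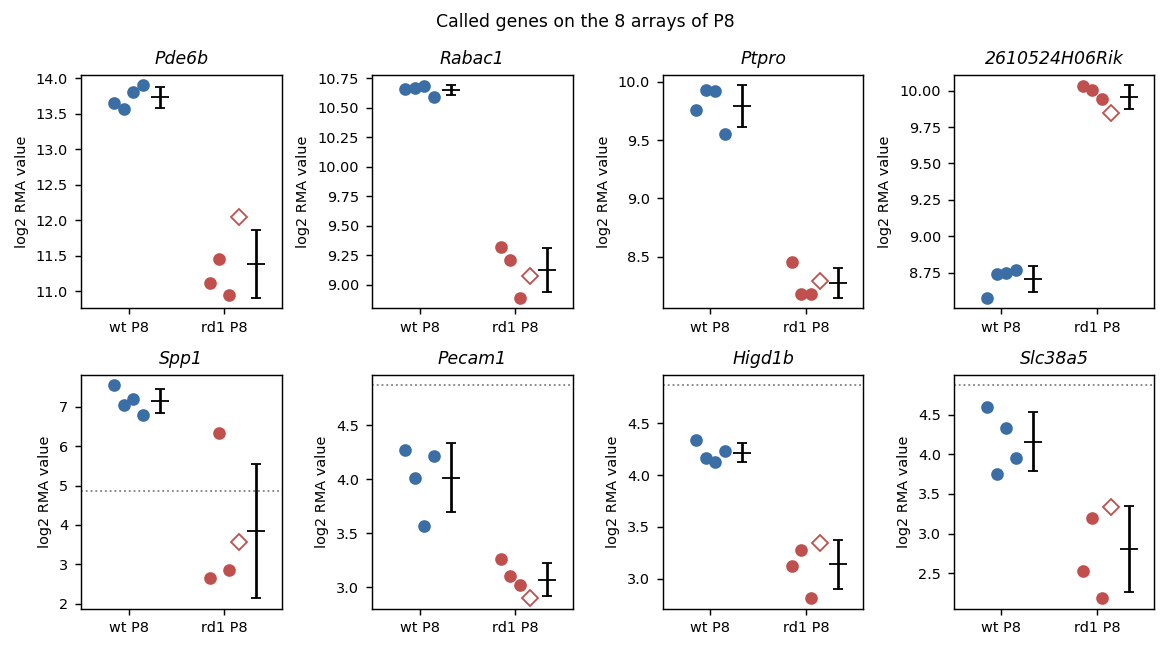
Log2 values (vertical axes) of 8 called genes on each P8 array. Blue circles are wt and red circles rd1, the open diamond is rd1 replicate 4, black bars are means ± SD (n = 4), and the dotted line is the highest Bacillus control value, 4.87. In all 8 panels the rd1 arrays lie apart from the wt arrays, with the rd1 arrays above only for 2610524H06Rik.

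Pde6b, the mutated gene, encodes the beta subunit of the rod phosphodiesterase. It read 13.65, 13.57, 13.81 and 13.90 in the wt pools, against 11.11, 11.45, 10.96 and 12.04 in the rd1 pools. The groups did not overlap, and rd1 replicate 4 was the highest of the rd1 arrays. The difference was -2.35 (SE 0.21, 5.08-fold lower, adjusted p = 2.18e-06), and -2.56 without rd1 replicate 4. It had been -2.58 at P4 and -2.64 at P6. The rd1 mean itself went from 9.30 at P4 through 10.69 at P6 to 11.39 at P8, beside 11.88, 13.33 and 13.74 in wt, so the gene's signal was higher at the later ages in both genotypes. This order of the arrays matches their genotype labels at P8. Hps4, the gene affected in light ear, read 8.73, 8.29, 8.73 and 8.58 in wt and 8.43, 8.62, 8.49 and 8.89 in rd1 and was not called (difference 0.03, -0.07 without rd1 replicate 4).

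The other members of the rod list (transducin, phosphodiesterase, channel and outer segment genes) lay mostly below wt, but none of them passed the test. Of 37 measured members 1 was called, which was Pde6b itself, beside 0.177% of 12403 genes (22 genes). Differences below 0 were seen in 33 of the 37 members with all arrays and in 36 without rd1 replicate 4, where 38.7% and 40.8% of all genes lay below 0. Of the 35 members with both means above 6, 3 lay above 0 with all arrays and 0 without rd1 replicate 4, beside 55.5% and 58.7% below 0 among all genes that bright. The median difference was -0.22 (-0.31 without rd1 replicate 4), beside 0.06 over all genes and -0.02 over those with both means above 6. The list median had been -0.003 at P4 and -0.44 at P6, so it lay further below 0 at P6 than at P8. The list averaged 11.13, 11.15, 11.21 and 11.55 in the wt pools, against 10.76, 11.15, 10.50 and 11.40 in the rd1 pools. The rd1 replicates 1 and 3 were below every wt array, whereas rd1 replicates 2 and 4 lay within the wt range, which ran from 11.13 to 11.55.
Abca4, the retinoid transporter of the outer segment, had a difference of -0.30 (adjusted p = 0.317). The transcription factor Nrl differed by 0.03 (0.01 without rd1 replicate 4). The 11 measured photoreceptor transcription factors had no call, and their median changed sign, from -0.05 with 4 of 11 above 0 to 0.04 with 7 of 11 above 0 without rd1 replicate 4.
Of 10 cone genes none was called with all arrays. Opn1mw, the middle-wavelength cone opsin, read 7.30, 6.92, 7.93 and 8.93 in wt and 4.74, 7.47, 3.15 and 9.15 in rd1. The rd1 replicates 1 and 3 were far below the wt arrays and replicates 2 and 4 were not, and the difference of -1.64 (adjusted p = 0.235) became -2.65 (adjusted p = 0.0459) without replicate 4. Opn1sw, the short-wavelength opsin, differed by -0.20 (adjusted p = 0.288), and Arr3, cone arrestin, by -0.42 (adjusted p = 0.334).

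Rabac1 encodes prenylated Rab acceptor 1, a membrane protein of the Golgi that binds Rab GTPases. It read 10.66, 10.67, 10.69 and 10.59 in wt and 9.32, 9.21, 8.89 and 9.08 in rd1. The groups were separated by more than 1 log2 unit, and the difference was -1.53 (SE 0.17, 2.88-fold lower, adjusted p = 3.20e-05). It had been -1.69 at P4 and -1.81 at P6. With the 8 arrays of P2 added to the fit the adjusted p was 0.182; the level of Pde6b goes against the genotype label on 4 of those arrays. Of the 46 measured Rab GTPases and their regulators Rabac1 was the 1 called, and the median difference of that list was -0.06 (-0.10 without rd1 replicate 4).
Ptpro encodes a receptor-type tyrosine phosphatase of the plasma membrane. It read 9.76, 9.93, 9.92 and 9.55 in wt and 8.45, 8.18, 8.18 and 8.29 in rd1. No arrays overlapped, and the difference was -1.51 (SE 0.13, 2.86-fold lower, adjusted p = 1.51e-06). It had been -1.14 at P4 and -0.996 at P6. A second, dimmer probe set of Ptpro differed by -1.36 and was not called. The P8 difference of Ptpro was not called as changed from that at P6 (-0.52, SE 0.19).

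A lasting rise was seen for a pair of genes. 2610524H06Rik, which these annotations leave without a gene product name, read 8.58, 8.74, 8.75 and 8.77 in wt and 10.03, 10.01, 9.94 and 9.85 in rd1 (difference 1.25, SE 0.16, 2.38-fold higher, adjusted p = 2.66e-04). Its difference had been 1.23 at P4 and 1.31 at P6. Efcab7, whose protein takes part in Hedgehog signalling at the cilium, read 6.12, 6.36, 6.56 and 6.46 in wt and 7.87, 7.33, 7.50 and 7.32 in rd1 (difference 1.13, SE 0.17, adjusted p = 0.00168). Its difference was 0.98 at P4 and 0.78 at P6. All rd1 arrays were above all wt arrays for both genes.
A further 4 calls had differences of 0.3 or more with the same sign at P4 and P6 but lost their call without single arrays. Sbno1, a homologue of the fly gene strawberry notch, differed by -0.67 (adjusted p = 0.0380), after -0.67 at P4 and -0.54 at P6. Its adjusted p was 0.133 without wt replicate 1, 0.0831 without wt replicate 2, 0.0898 without wt replicate 3, 0.0648 without wt replicate 4 and 0.164 without rd1 replicate 3. Zfp932, a zinc finger gene, differed by -0.59 (adjusted p = 0.0207), after -0.34 and -0.38, and was not called without wt replicate 1, 2 or 4 or rd1 replicate 3 (adjusted p up to 0.0835). A probe set shared by Entpd4 and Entpd4b, nucleotidases of the Golgi, differed by -0.98 (adjusted p = 0.0209), after -1.04 and -1.10, and was not called without wt replicate 1, 2 or 4 or rd1 replicate 3 (adjusted p up to 0.0993). A probe set shared by Plac9a, Plac9b and Gm9780 was higher by 0.65 (adjusted p = 0.0299), after 0.76 and 0.32, and of the 8 fits without 1 array kept its call only in those without rd1 replicate 1 or 4 (adjusted p up to 0.116).
In all, 9 of the 35 calls had differences of 0.3 or more with the same sign at P4 and P6, and 21 had differences under 0.2 in size at both. The same sign at both ages, whatever the size, was seen in 18 of the 35. At P6 26 probe sets were called (0.115%) and at P4 9 (0.0398%).

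Some of the called genes lie near the mutation. Of 12379 genes with a position, 773 (6.24%) are on chromosome 5 and 277 (2.24%) start within 20 Mb of Pde6b. Of 32 called genes 7 (21.9%) are on chromosome 5 and 5 (15.6%) lie in that window, namely Pde6b, Spp1, 2610524H06Rik, Sbno1 and Zfp932. Pde6b is counted in both shares although the window is drawn around it. Without rd1 replicate 4, 11 of 78 called genes (14.1%) were on chromosome 5 and 5 (6.41%) in the window, again with Pde6b. These shares are a description, and the part of linked chromosome 5 sequence in the differences was not tested.

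**Figure D2:**
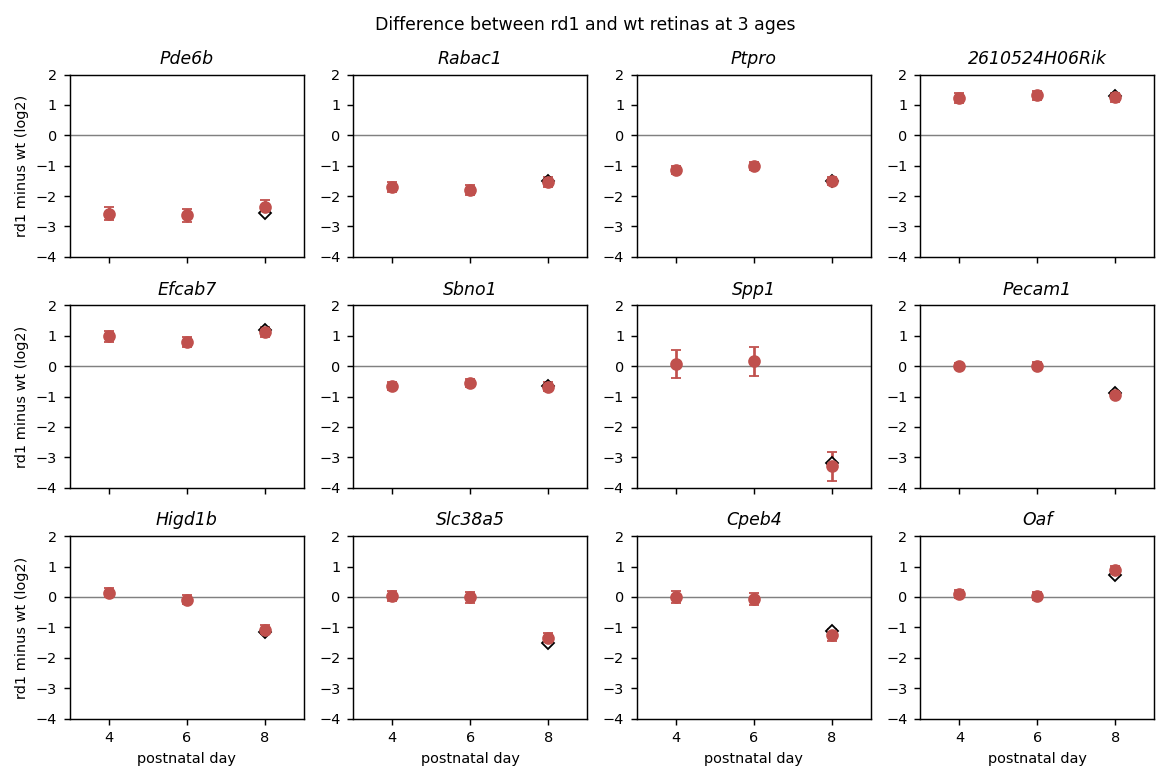
Difference rd1 minus wt (log2, vertical axes) at P4, P6 and P8 for 12 genes. Red points are fitted differences ± SE (4 arrays per genotype and age), and the open diamond is P8 without rd1 replicate 4. Pde6b stays between -2.64 and -2.35 across the ages, while Spp1, Pecam1, Higd1b and Slc38a5 lie near 0 at P4 and P6 and are below 0 at P8.

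Other calls were made at P8 in genes with small differences at P4 and P6, although the change from P6 to P8 was called for none of them. Spp1 encodes osteopontin, a secreted phosphoprotein. It read 7.54, 7.04, 7.19 and 6.80 in wt and 2.64, 6.33, 2.85 and 3.55 in rd1, with rd1 replicate 2 far above the other rd1 arrays and all 4 below wt (difference -3.30, SE 0.47, adjusted p = 0.00109). The rd1 mean of 3.84 is dim, so the size of the difference is uncertain and no fold is given. The difference was -4.12 without rd1 replicate 2 and -1.85 with array quality weights. Its adjusted p was 0.256 on the P8 arrays alone, and 0.0510 with the replicate block and without rd1 replicate 4. The wt mean of Spp1 went from 2.75 at P6 to 7.14 at P8 and the rd1 mean from 2.91 to 3.84.

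Pecam1, the adhesion molecule CD31 of endothelial cells, read 4.27, 4.01, 3.56 and 4.21 in wt and 3.26, 3.11, 3.02 and 2.90 in rd1. All rd1 arrays were below all wt arrays (difference -0.94, SE 0.11, adjusted p = 8.52e-05). Higd1b, known as a marker of pericytes, read 4.33, 4.16, 4.13 and 4.23 in wt and 3.12, 3.27, 2.81 and 3.34 in rd1 (difference -1.08, SE 0.14, adjusted p = 2.66e-04).
Slc38a5, a glutamine transporter that retinal endothelial cells express, read 4.59, 3.75, 4.33 and 3.96 in wt and 2.53, 3.19, 2.19 and 3.33 in rd1 (difference -1.35, SE 0.18, adjusted p = 3.26e-04). All 3 genes are dim: the rd1 means lie inside the range of the Bacillus controls, and so do the wt means. The SD of Slc38a5 was 0.02 to 0.11 at P4 and P6, but 0.37 (wt) and 0.54 (rd1) at P8, and the SE shares these ages. Among the alternative fits the adjusted p (limma) rose to 0.163 for Pecam1, 0.0173 for Higd1b and 0.256 for Slc38a5. The fold test and the replicate block without rd1 replicate 4 are not counted here. From P6 to P8 the wt mean of Pecam1 went from 2.90 to 4.01, that of Higd1b from 2.79 to 4.21 and that of Slc38a5 from 1.84 to 4.16. The rd1 means of the same genes went from 2.91 to 3.07, from 2.71 to 3.14 and from 1.83 to 2.81.
Lyve1, a hyaluronan receptor of lymphatic endothelium and of some macrophages, differed by -0.85 on 1 probe set (adjusted p = 0.0478) and by -0.13 on the other. Its call was lost without wt replicate 2, 3 or 4 or rd1 replicate 3 (adjusted p up to 0.189). Pltp, a phospholipid transfer protein, differed by -1.14 (adjusted p = 0.0499) and by -0.94 on its brighter, uncalled probe set. The Pltp call was lost without wt replicate 1, 3 or 4 or rd1 replicate 2 or 3 (adjusted p up to 0.196).
In the list of 25 endothelial and pericyte genes 1 was called with all arrays (Pecam1) and 3 without rd1 replicate 4, all lower, beside 0.177% and 0.411% of all genes. Of the 25, 14 lay below 0 with all arrays and 20 without rd1 replicate 4, and the median difference was -0.07 and -0.14. Cdh5, the cadherin of endothelial junctions, differed by -0.26 (adjusted p = 0.421).

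Further calls were mixed in role, and most were dim. Cpeb4, Lin7b, Arap2, Stat5b, Oaf and Dhx32 kept their call in every fit without 1 array. Those fits still share their spread with P4 and P6. Each of these genes lost its call in at least 1 other alternative fit (highest adjusted p 0.124 to 0.256, limma). Stat5b was called in 13 of 16 alternatives. The fold test and the replicate block without rd1 replicate 4 are not counted here. Cpeb4, a protein that binds cytoplasmic polyadenylation elements of messenger RNA, read 4.73, 4.50, 4.22 and 4.54 in wt and 3.95, 3.26, 2.89 and 2.86 in rd1 on the called probe set (difference -1.26, adjusted p = 0.00300). The 2 brighter probe sets of Cpeb4 differed by -0.45 and -0.10 and were not called (-0.35 and -0.19 without rd1 replicate 4). Lin7b, a scaffold protein of synapses and cell junctions, differed by -0.81 (adjusted p = 0.00378) on a dim probe set and by 0.20 on a brighter one. Arap2, a regulator of Arf GTPases, differed by -0.65 (adjusted p = 0.00261), and Stat5b, a transcription factor of cytokine signalling, by -0.42 (adjusted p = 0.00759) on a dim probe set and by 0.04 on a brighter one (-0.03 without rd1 replicate 4).
Oaf, a homologue of the fly gene out at first, was higher in rd1. It read 4.60, 4.997, 4.48 and 4.54 in wt and 5.41, 5.26, 5.49 and 5.97 in rd1 without overlap (difference 0.88, SE 0.13, adjusted p = 0.00246), after 0.11 at P4 and 0.03 at P6. Dhx32, an RNA helicase family member, was higher by 0.39 (adjusted p = 1.48e-04) at means of 1.11 and 1.49, deep in the range of the Bacillus controls. S100a5, a calcium-binding protein, was higher by 0.50 (adjusted p = 0.00972), and its adjusted p without wt replicate 1 was 0.0524. The small rises of Pigq (0.24), Hhip (0.53) and Csn3 (0.50) were also in dim probe sets, and each lost its call without wt replicate 1, 2 or 4 and at least 1 more array (adjusted p up to 0.208). The other probe sets of Pigq differed by -0.11 to 0.22, and the brightest of them by -0.11 (-0.21 without rd1 replicate 4), none called. Without rd1 replicate 4 the calls of Hhip (0.51, adjusted p = 0.0632) and Csn3 (0.47, adjusted p = 0.0691) were lost. A probe set with no gene symbol here was higher by 0.96, from a wt mean of 5.13 to an rd1 mean of 6.10, and lost its call without wt replicate 1, 2 or 4 or rd1 replicate 3 (adjusted p up to 0.0657).

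The other lower calls lost significance without single arrays. Gzmm, a granzyme of lymphocytes, read 5.99, 6.56, 6.37 and 6.45 in wt and 5.74, 5.31, 4.64 and 4.37 in rd1 (difference -1.33, adjusted p = 0.0172, -1.04 at P6). Its adjusted p was 0.0571 without wt replicate 2, 0.0648 without wt replicate 4 and 0.0835 without rd1 replicate 3. Papola, a poly(A) polymerase, differed by -0.70 (adjusted p = 0.0235) on 1 of 4 probe sets, with -0.24, -0.23 and -0.20 on the others, and the first and last of these turned to 0.05 and 0.13 without rd1 replicate 4. It lost its call without wt replicate 3 or 4 or rd1 replicate 3. Xpr1, a phosphate exporter, differed by -0.52 (adjusted p = 0.0372), and Slc6a17, a vesicular amino acid transporter of neurons, by -0.62 (adjusted p = 0.0478). Aak1, a kinase of clathrin adaptors, differed by -0.46 (adjusted p = 0.0416) on its brightest probe set. Its dimmer probe sets differed the other way, by 0.09, 0.13, 0.06 and 0.18, and were not called. Without rd1 replicate 4 the called probe sets of Xpr1, Slc6a17 and Aak1 differed by -0.45, -0.48 and -0.44 (adjusted p = 0.0627, 0.0685 and 0.0530). Each call was also lost without wt replicate 1 or 4 or rd1 replicate 3, among others (adjusted p up to 0.184).
Dscaml1, an adhesion molecule of retinal neurons, differed by -0.69 (adjusted p = 0.0367), and Neto1, an auxiliary subunit of glutamate receptors, by -0.96 (adjusted p = 0.0241). Brighter probe sets of both were not called, with differences of -0.27 and 0.17 (-0.46 and 0.08 without rd1 replicate 4). Foxq1, a forkhead factor, differed by -0.83 (adjusted p = 0.0241) and Bcam, a laminin receptor, by -0.70 (adjusted p = 0.0478), both dim in both groups. All 4 lost their call without rd1 replicate 3 and, each for some of these arrays, without wt replicate 1, 2, 3 or 4 or rd1 replicate 2 or 4 (adjusted p up to 0.208). Without rd1 replicate 4 Dscaml1 differed by -0.66 (adjusted p = 0.05002) and Bcam by -0.66 (adjusted p = 0.0644), neither called.

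**Figure D3:**
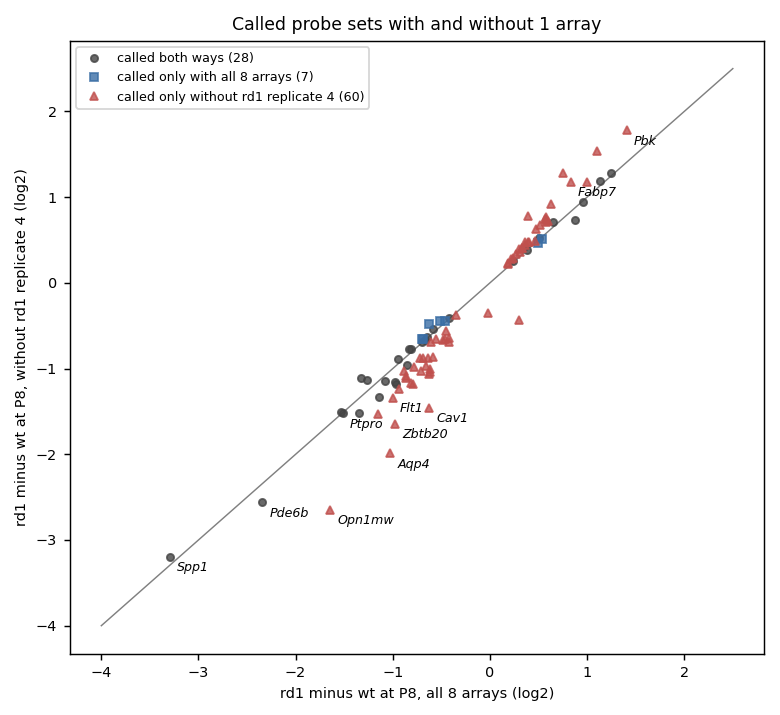
Difference rd1 minus wt at P8 (log2) with all 8 arrays (horizontal axis) and without rd1 replicate 4 (vertical axis), 1 point per probe set. Coloured points mark 28 probe sets called in both fits, 7 called only with all 8 arrays and 60 called only without that array.

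Leaving out rd1 replicate 4 brought 60 further probe sets past the threshold, 28 higher and 32 lower, and 21 of the 28 were dim in both groups. The genes given here are of mixed role, and no change of their difference from P6 to P8 was called with all arrays. Ccn2, a matricellular protein of the connective tissue growth factor family, read 7.95, 7.91, 7.54 and 7.65 in wt and 6.75, 6.93, 6.34 and 7.57 in rd1. The rd1 replicate 4 value lay within the wt range, and the difference went from -0.87 (adjusted p = 0.135) to -1.09 (adjusted p = 0.0145). Flt1, a receptor of vascular endothelial growth factor, read 3.64, 2.64, 4.59 and 3.54 in wt and 2.20, 2.25, 2.33 and 3.62 in rd1 on a dim probe set (-1.34 without rd1 replicate 4, adjusted p = 0.0108), while its brightest probe set differed by 0.07 (-0.06 without that array).
Emcn, a sialomucin of endothelium, differed by -1.17 (adjusted p = 0.0460) and Pdgfrb, the receptor of pericytes for platelet-derived growth factor, by -0.87 (adjusted p = 0.0429) without that array. With it the values were -0.81 and -0.64, neither called. Cav1, the coat protein of caveolae, read 7.76, 8.05, 7.91 and 9.19 in wt and 6.76, 7.69, 5.86 and 10.09 in rd1, so that rd1 replicate 4 was the highest and rd1 replicate 3 the lowest of the 8 (difference -0.63 with it and -1.46 without it, adjusted p = 0.0452).
Aqp4, the water channel of Mueller glia and astrocytes, read 5.27, 4.97, 6.38 and 7.30 in wt and 3.81, 5.41, 2.75 and 7.84 in rd1 (difference -1.03, and -1.99 without rd1 replicate 4, adjusted p = 0.0496). Frzb, a secreted antagonist of Wnt ligands, differed by -1.53 without rd1 replicate 4 (adjusted p = 0.00423), and Vip, a peptide of amacrine cells, by -0.69 (adjusted p = 0.0457). With all arrays Frzb differed by -1.15 (adjusted p = 0.151), and the Vip means were 4.24 in wt and 3.82 in rd1, neither called. The wt means of Ccn2, Cav1, Aqp4 and Frzb were 6.53, 5.32, 2.57 and 2.60 at P6, and 7.76, 8.23, 5.98 and 4.76 at P8.
A pair of genes of immature cells were higher without that array. Fabp7, a fatty acid binding protein of radial and Mueller glia, read 11.47, 11.65, 11.30 and 10.47 in wt and 12.54, 11.70, 12.98 and 11.01 in rd1 (1.18, adjusted p = 0.0341). Its wt mean went from 13.43 at P4 to 12.50 at P6 and 11.23 at P8. Pbk, a kinase of mitotic cells, read 4.48, 3.70, 4.17 and 3.67 in wt and 5.61, 4.83, 6.91 and 4.31 in rd1 (1.78, adjusted p = 0.0496), and its wt mean went from 10.19 through 6.40 to 4.01. Both genes were highest on rd1 replicates 1 and 3. With all arrays neither was called, at means of 11.23 (wt) and 12.06 (rd1) for Fabp7 and 4.01 (wt) and 5.42 (rd1) for Pbk.

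**Figure D4:**
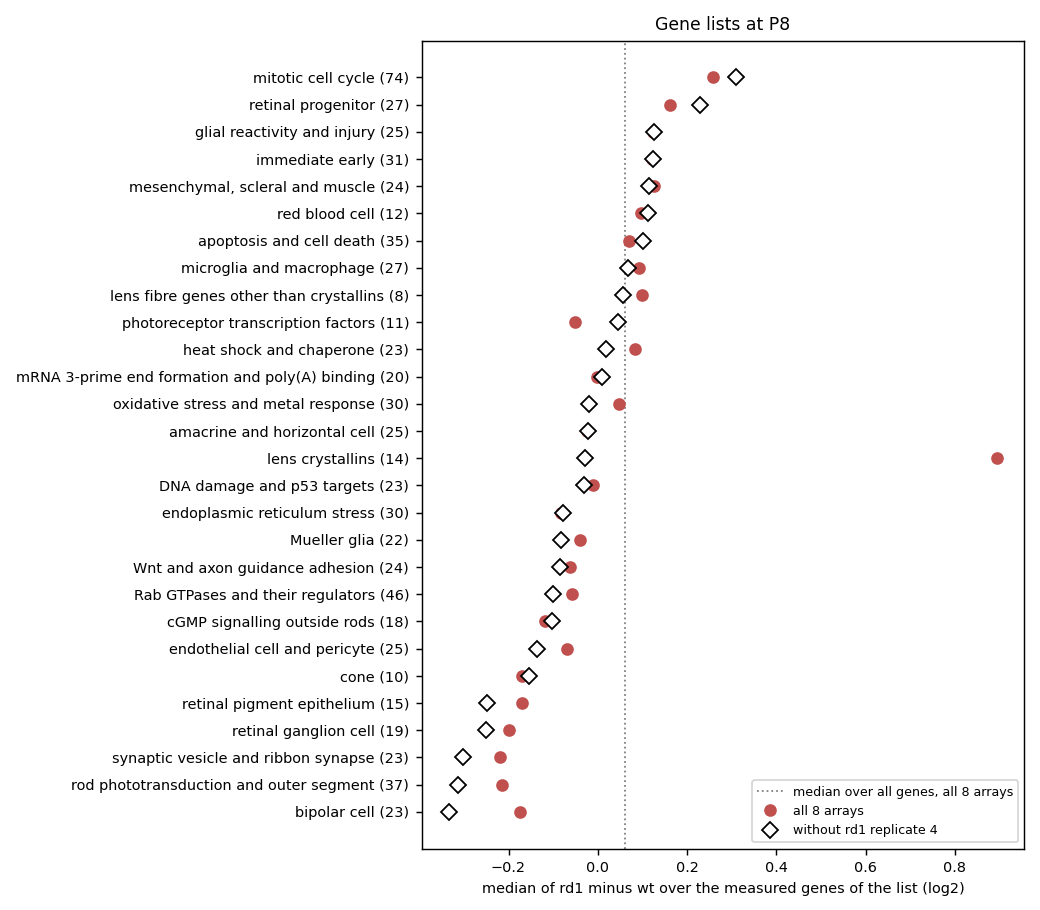
Median difference rd1 minus wt at P8 (log2, horizontal axis) of 28 gene lists (the 5 sex chromosome genes are not drawn), with all 8 arrays (filled) and without rd1 replicate 4 (open). Rod, synaptic and bipolar lists lie at -0.17 to -0.22 with all arrays, the mitotic list at 0.26, and the crystallin list moves from 0.89 to -0.03.

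Synaptic, bipolar and ganglion cell lists lay below the median of all genes and mitotic and progenitor lists above it, with almost no single call. The amacrine and horizontal cell list had a median of -0.02, with 12 of 25 above 0, and the Mueller glia list one of -0.04. The lists below were chosen with earlier results of these data known, and their medians are descriptions. Synaptic vesicle and ribbon genes had a median of -0.22 (-0.30 without rd1 replicate 4), and 22 of 23 lay below 0 either way, none called. Of all genes 38.7% lay below 0 (40.8% without rd1 replicate 4), and 55.5% (58.7%) of those with both means above 6. At P6 the synaptic median was -0.28. Cacna1f, the calcium channel of photoreceptor terminals, differed by -0.73 (adjusted p = 0.204), Dlg4, the scaffold PSD-95, by -0.46 (adjusted p = 0.216) and Snap25, a membrane fusion protein, by -0.29 (adjusted p = 0.224).
Of 23 bipolar cell genes 16 lay below 0 with all arrays and 18 without rd1 replicate 4, beside 38.7% and 40.8% of all genes. The median was -0.17 and -0.33, none called, and at P6 it had been -0.65. In wt the list averaged 7.81, 7.75, 7.93 and 8.12, against 7.45, 7.82, 7.24 and 8.35 in rd1, with rd1 replicate 4 the highest and rd1 replicate 3 the lowest of the 8 arrays. Pcp2, a G protein regulator of rod bipolar cells, differed by -0.95 (adjusted p = 0.216), Rgs11, which ends their light response, by -0.57 (adjusted p = 0.228), and Gabrr1, their GABA receptor subunit, by -0.73 (adjusted p = 0.312). At P6 the Gabrr1 means were 8.46 in wt and 5.96 in rd1. Nefm, a neurofilament of ganglion cells, differed by -0.47 (adjusted p = 0.221) within a list of 19 with a median of -0.20 and no call.
Of 74 mitotic genes 61 lay above 0 with all arrays and 67 without rd1 replicate 4, where 61.3% and 59.2% of all genes did. Of the 25 with both means above 6, 20 and 24 lay above 0, beside 44.5% and 41.3% of genes that bright. The median was 0.26 and 0.31, and the 1 call, without rd1 replicate 4, was Pbk. In wt the list averaged 5.63, 5.75, 5.63 and 5.47, against 6.12, 5.72, 6.23 and 5.60 in rd1, beside means of 6.21 in wt and 7.06 in rd1 at P6. The rd1 replicates 1 and 3 were above every wt array and replicates 2 and 4 were within the wt range. Nuf2, a kinetochore protein, differed by 0.83 (adjusted p = 0.216), and Ccnb1, cyclin B1, by 0.90 (adjusted p = 0.216), both dim in both groups.
Of 27 progenitor genes 19 lay above 0, beside 61.3% of all genes (median 0.16, none called). Among the 20 with both means above 6, 13 lay above 0, beside 44.5% of genes that bright. Dll3, a Notch ligand of newborn neurons, differed by 0.90 (adjusted p = 0.177) and Mfng, a glycosyltransferase of the Notch pathway, by 0.42 (adjusted p = 0.216). The same split of the rd1 arrays was present in this list, at 8.01, 7.65, 8.05 and 7.54 in rd1 against 7.78, 7.77, 7.64 and 7.43 in wt.
Pools also differed in the signal of Y-linked genes: Ddx3y, an RNA helicase on the Y chromosome, read 9.61, 8.91, 8.81 and 10.12 in wt and 8.99, 8.29, 7.19 and 9.09 in rd1 (difference -0.97, adjusted p = 0.234), and 5 sex chromosome genes had a median difference of -0.91, none called. Its part in the other differences was not tested.

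Genes of cellular stress are those of 6 lists (immediate early, heat shock, endoplasmic reticulum stress, oxidative stress, DNA damage, and glial reactivity). Of 162 measured genes 113 had both P8 means above 6, which keeps them clear of the Bacillus controls. None of the 113 was called (lowest adjusted p = 0.135, limma), where 10 of 7303 genes above 6 were (0.137%, and 0.192% without rd1 replicate 4), and 11 of them had an unadjusted p below 0.05. Differences above 0 were seen in 60 (53.1%) and below 0 in 53, beside 44.5% above 0 among all genes above 6. Without rd1 replicate 4 the difference was above 0 in 56, beside 41.3% of those genes. The median difference was 0.02, and -0.01 without rd1 replicate 4, against -0.02 and -0.04 over those genes. Only 4 of the 113 differed by 1.5-fold or more, which were Egr1, Fos, Nr4a1 and Ccn2. The rd1 replicate 4 array was the highest of the 8 for 38 of the 113 (33.6%) and for 30.1% of all genes above 6.

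Immediate early genes, which neurons and glia switch on within minutes of a stimulus, held the largest of these differences. Egr1, a zinc finger transcription factor, read 9.08, 8.92, 8.17 and 7.35 in wt and 9.05, 9.99, 8.75 and 10.94 in rd1. The groups overlapped, rd1 replicate 4 was the highest array and wt replicate 4 the lowest. The difference was 1.31 (SE 0.40, adjusted p = 0.192), and 0.89 without rd1 replicate 4.
Nr4a1, an orphan nuclear receptor, read 6.91, 7.03, 6.98 and 7.21 in wt and 7.38, 7.67, 7.15 and 9.52 in rd1 (difference 0.90, adjusted p = 0.216, and 0.37 without rd1 replicate 4). Fos, named after its values were seen, read 7.46, 6.64, 6.86 and 6.59 in wt and 7.42, 8.64, 6.57 and 9.72 in rd1 (difference 1.20, and 0.66 without rd1 replicate 4). For both genes rd1 replicate 4 was the highest array by over 1 log2 unit, and it is the array with the lens signal. Zfp36, which destabilises AU-rich messenger RNAs, differed by 0.30 (adjusted p = 0.222). Of the 16 members above 6, 11 were above 0, with a median of 0.20, and the 1 call without rd1 replicate 4 was the lower value of Ccn2 given above.

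**Figure D5:**
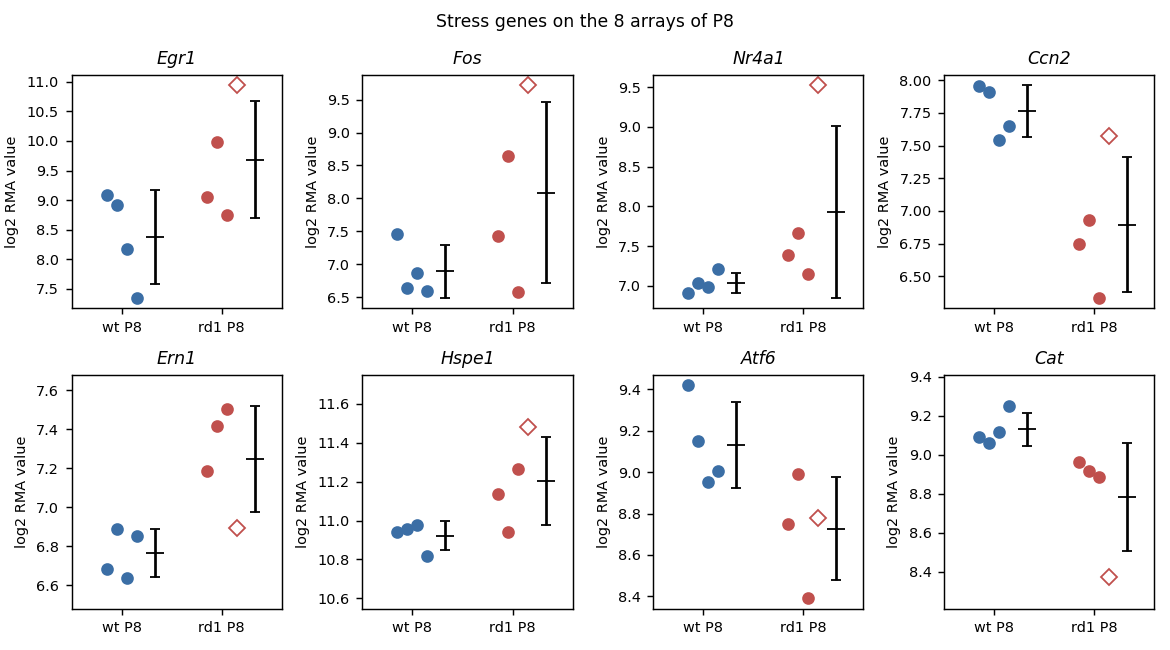
Log2 values (vertical axes) of 8 stress genes on each P8 array, drawn as in the plot of called genes. The rd1 and wt arrays overlap for Egr1, Fos, Nr4a1, Ccn2, Hspe1 and Atf6 and not for Ern1 and Cat. The rd1 replicate 4 array (open diamond) is the highest for Egr1, Fos, Nr4a1 and Hspe1.

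The other stress lists showed smaller differences. Of 18 heat shock and chaperone genes above 6, 12 lay above 0 with all arrays (median 0.09) and 10 without rd1 replicate 4 (median 0.03). Hspe1, the mitochondrial co-chaperone of HSP60, differed by 0.28 (adjusted p = 0.216), and Dnajb1, the HSP40 co-chaperone, by -0.28 (adjusted p = 0.219). Dnajb4 differed by -0.27 (-0.41 without rd1 replicate 4) and Hspa4l by 0.21, so on these probe sets co-chaperones lay on both sides of 0. Dimmer probe sets of Hspe1, Hspa4l, Dnajb1 and Dnajb4 differed by -0.07, -0.10, -0.16 and 0.01. Without rd1 replicate 4 these were -0.23, -0.19, -0.07 and -0.15, so the signs of Hspe1 and Hspa4l depended on the probe set.
Of 28 genes of endoplasmic reticulum stress above 6, 8 lay above 0 and the median was -0.11. Ern1, which encodes the stress sensor IRE1, read 6.68, 6.89, 6.64 and 6.85 in wt and 7.18, 7.41, 7.50 and 6.89 in rd1. The rd1 replicates 1 to 3 were above every wt array and replicate 4 lay level with the highest of them (difference 0.48, adjusted p = 0.177, and 0.60, adjusted p = 0.0581, without replicate 4). Atf6, the sensor that is cleaved in the Golgi, differed the other way by -0.40 (adjusted p = 0.216). The chaperones Hspa5 and Hyou1, targets of these sensors, differed by -0.17 and -0.36 on their brightest probe sets. A dimmer probe set of Hspa5 differed by 0.004 (0.0002 without rd1 replicate 4). Those of Hyou1 differed by 0.58 and 0.06 (0.41 and 0.08 without rd1 replicate 4).
Of 25 genes of oxidative stress and metal response above 6, 15 lay above 0 with all arrays and 11 without rd1 replicate 4. Cat, which encodes catalase, differed by -0.35 (adjusted p = 0.284), and rd1 replicate 4 had the lowest value, 8.37; without it the difference was -0.21 (adjusted p = 0.544). Prdx4, a peroxiredoxin, differed by 0.31, Gpx1, a glutathione peroxidase, by 0.13, and Srxn1, which restores peroxiredoxins, by -0.34 (-0.60 without rd1 replicate 4). Dimmer probe sets of Srxn1 differed by 0.40, 0.17 and -0.26 (0.32, -0.23 and -0.24 without rd1 replicate 4).
Of 18 genes of DNA damage and p53 targets above 6, 7 lay above 0 (median -0.02, and -0.04 without rd1 replicate 4). Sesn2 differed by -0.32, the repair scaffold Xrcc1 by -0.23, the damage kinase Atm by 0.16, and Bbc3, the BH3-only protein PUMA, by 0.25 with all arrays and 0.06 without rd1 replicate 4. Of 8 genes of glial reactivity above 6, 7 lay above 0 (median 0.14); Spp1, also in that list, fell outside the level rule with its rd1 mean of 3.84. Gfap, the intermediate filament of reactive Mueller glia and astrocytes, read 7.61, 7.48, 7.48 and 7.40 in wt and 7.43, 7.95, 7.43 and 7.85 in rd1 (difference 0.17, adjusted p = 0.494), and Vim, vimentin, differed by 0.09 (adjusted p = 0.728). These were 0.11 and 0.01 without rd1 replicate 4. A dimmer probe set of Gfap differed by -0.10 (-0.17 without rd1 replicate 4). Those of Vim differed by 0.13 and -0.02 (0.11 and 0.11 without rd1 replicate 4). The microglial genes Cx3cr1 and C1qa had differences of -0.01 (0.04 without rd1 replicate 4) and 0.06. A dim probe set of Cx3cr1 differed by 0.34 (0.15 without rd1 replicate 4). In the cell death list of 35 genes none was called (median 0.07), and Xiap, an inhibitor of caspases, differed by -0.39 (adjusted p = 0.163). Its dimmer probe sets differed by -1.28 to 0.31 (-0.43 to 0.31 without rd1 replicate 4).

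Lens genes were the list most affected by the choice of arrays. Cryba4, a beta crystallin, read 4.04, 8.52, 5.73 and 7.80 in wt and 7.29, 6.75, 7.10 and 11.72 in rd1, and the difference of 1.69 became 0.52 without rd1 replicate 4. Crygs, a gamma crystallin, read 4.84, 10.05, 7.43 and 9.58 in wt and 8.47, 8.48, 7.66 and 12.81 in rd1 (1.38 and 0.23). All 14 crystallins lay above 0 with all arrays, 7 of 14 did so without rd1 replicate 4, and none was called either way. The wt arrays also differed widely among themselves, at list means of 5.43, 9.40, 7.35 and 8.81.

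The difference at P8 was tested against those at the earlier ages as an interaction term in the same limma fit. No probe set was called for P8 against P6 (0%, with 1146 at an unadjusted p below 0.05, 5.06%). For P8 against P4 2 were called (0.00884%), Pecam1 (change of the difference -0.95, SE 0.16, adjusted p = 0.0363) and Higd1b (-1.22, SE 0.20, adjusted p = 0.0363). Both of these calls were lost without wt replicate 1 (adjusted p = 0.0757), wt replicate 4 (0.0906) or rd1 replicate 3 (0.124), with no intensity trend (0.0800) and with median centring (0.0901). The Pecam1 call was also lost without rd1 replicate 4 (0.0675), and the Higd1b call without wt replicate 3 (0.0574) and with the replicate block (0.0513). For Spp1 the change of the difference from P6 to P8 was -3.45 (SE 0.66, adjusted p = 0.137).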

How the data were processed

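Retinal RNA was hybridised to Affymetrix MOE430A arrays from 10 micrograms of total RNA per pool. The log2 values were deposited by the authors after RMA, with no version given in the sources used here; RMA sets arrays to a common distribution and compresses low signals. A second table holds the authors' own fold changes and FDR p-values and was not used. Of 22690 probe sets 64 Affymetrix controls were left out; 20390 had 1 gene symbol, 691 several and 1545 none here. A gene is its brightest probe set (12403 genes), and for a called gene the called probe set is printed. Differences were fitted with limma 3.58.1 in R 4.3.3 (lmFit, eBayes with an intensity trend, 1 mean per group) on the 24 arrays of P4, P6 and P8, with 18 residual degrees of freedom, two-sided, with Benjamini-Hochberg adjustment over 22626 probe sets; the fit was tested on simulated data. P2 was left out because the level of Pde6b goes against the genotype label on 4 of its 8 arrays. p-values measure only the spread between pools, and 1 spread per probe set is shared by P4, P6 and P8. For some called genes the wt SD was smaller at P4 and P6 than at P8 (Bcam 0.04 and 0.05 against 0.51). For others it was larger (2610524H06Rik 0.16 and 0.39 against 0.09). A fit on the P8 arrays alone, which shares no spread with the earlier ages, kept 6 of the 35 calls. The arrays hold no depth, so their number limits the precision. The named genes are the 15 largest rises and falls among non-overlapping calls with 1 symbol (with and without rd1 replicate 4), Pde6b, Rabac1 and Hps4, the 4 smallest p-values of each list (stress lists: above log2 6) and defining markers, of which 2 genes of the rod list are not reported here. Every further call with a symbol, and Fos, Grk1, Aqp4, Vim and Vip, were named after their values were seen. The members and lists were chosen with earlier results of these data known.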

Additional observations from a re-analysis of the deposited data

Results flagged for a closer look

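In each group of 4 arrays the highest or lowest value was compared with the rest by Dixon's ratio at its usual critical value, which chance passes in about 1 in 20 groups. Of 260 groups 25 passed, and in 14 of these the value was that of rd1 replicate 4. In that array the crystallins Cryba4 (11.72), Crybb3 (12.24), Crygs (12.81) and Cryaa (13.44) and the lens filament gene Bfsp1 (7.81) stood above the other 3 rd1 arrays, as did Bbc3 (8.58), Flt1 (3.62) and Vip (4.62), while Cat (8.37) stood below them. The list means that stood high in rd1 replicate 4 among the rd1 arrays were those of crystallins (11.55), other lens fibre genes (5.77), pigment epithelium (6.83), mesenchymal and scleral genes (4.77) and immediate early genes (6.24). The pigment epithelium mean was higher still on wt replicate 4 (7.03).
Among the other rd1 arrays Foxq1 was high in replicate 1 (3.41), Grk1, a kinase of the rod cascade, high in replicate 2 (8.10) and Mfng low in replicate 2 (7.67). In wt, 2610524H06Rik was low in replicate 1 (8.58), Gabrr1 low (9.52) and Cdca3, a gene of cell division, and Mip high in replicate 2 (4.23 and 3.97), and Cacna1f high in replicate 4 (8.83). The wt replicate 4 array was also lowest for the means of the DNA damage list (7.17) and of the genes of messenger RNA 3-prime end formation (9.49) and highest for the synaptic list (10.20).
The genotype difference differed between P8 and P4 for Pecam1 (-0.95) and Higd1b (-1.22), by the interaction term, and both calls were lost without wt replicate 1, wt replicate 4 or rd1 replicate 3 (adjusted p = 0.0757, 0.0906 and 0.124).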

How the results depend on the processing

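The number of arrays limits the precision. Of 35 calls 15 passed in each of the 8 fits without 1 array. Total, higher and lower calls were 35, 10 and 25 as reported. They were 88, 36 and 52 without rd1 replicate 4, and 10, 3 and 7 on the P8 arrays alone. With array quality weights they were 3127, 2669 and 458 (weights of 0.31 to 3.20 on the rd1 arrays), with median centring 22, 7 and 15, and without the 30% dimmest probe sets 15, 5 and 10. A test against a fold of 1.5 gave 4, 0 and 4. All 32 arrays gave 18 higher calls and quantile normalization 42 lower. Leaving out 1 array gave 17 to 149 calls, 4 to 94 higher and 12 to 55 lower. Same-numbered P8 arrays deviated together with correlations of 0.31, -0.15, 0.09 and 0.20, and 3 of 4 correlated best with their own number in both genotypes. Whether the numbers mark a shared batch or litter was not tested, so the replicate block is given as an alternative. With the replicate block there were 38 calls (16 higher), 28 of them shared, and without rd1 replicate 4 as well, an alternative chosen after seeing the data, 20, 6 and 14.
For P8 against P6 the 0 calls became 1 without rd1 replicate 4, 5 with all 32 arrays, 315 with weights, 2 with quantile normalization and 0 to 7 without 1 array. For P8 against P4 the 2 calls became 5 with all 32 arrays or the replicate block, 21 with weights, 0 to 10 without 1 array, and 0 with no trend, block without rd1 replicate 4, median centring, the dim filter or the fold test. Of the named genes 25 were called, 41 without rd1 replicate 4, 6 on P8 alone, 70 with weights, 12 with the block without that array, 10 with the dim filter, 4 by the fold test and 15 to 41 without 1 array. Of list members 5 were called, 13 without rd1 replicate 4, 3 on P8 alone or with the dim filter, 59 with weights and 5 to 13 without 1 array. Of stress genes 0 were called, 1 without rd1 replicate 4 with or without the block, 6 with weights, and 1 with 1 or no mean above 6.
Differences that changed sign were Grk1 with weights (0.063), Bbc3 with the block without rd1 replicate 4 (-0.039), Bfsp1 (-0.12 to 0.55), Cryaa (from 0.88 to -0.11 without rd1 replicate 4), C1qa (-0.019 to 0.13), Nrl (-0.00204 to 0.077), Hps4 (-0.073 to 0.085) and Cx3cr1 (-0.045 to 0.037) without 1 array. Sign changes outside these were Bfsp1 (-0.15), Hps4 (-0.070) and Cx3cr1 (0.060) with the block without rd1 replicate 4, Nrl with quantile normalization (-0.00100), and Cx3cr1 with weights (0.058), median centring (0.017) or quantile normalization (0.022). The causes were not tested.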
